A study of Rattus norvegicus with 16 samples.

Results

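The cell cycle and proliferation genes described here are 48 rat genes listed by name: replication licensing and fork genes, cyclins and cyclin-dependent kinases, spindle checkpoint and kinetochore genes, mitotic ubiquitination genes, mitotic kinases, spindle and cytokinesis genes, and the proliferation markers Mki67 and Top2a. A gene was a member if the accession of an array probe mapped to it. No measured value entered that rule, but the 48 genes were listed with earlier results of these data known. Of the 48 genes, 43 had a probe, among 15715 genes with a probe on the array, and Mcm5, Cdc25c, Melk, Anln and Top2a matched none and are not analysed here. The 43 genes were covered by 53 probes, and 9 of them had more than 1 probe. All 43 passed the filter on dim probes, and 41 were well above background on all 16 arrays. Cdt1 and Ccnb1 were well above background on the others but not on 1 array of an untreated sample.

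Hippocampal neurons taken from Sprague-Dawley rats at embryonic day 18 were kept in primary culture for 6 to 9 days, and their RNA was measured on 1-colour Agilent arrays. The 5 groups of 3 samples were untreated cultures and cultures given 5 µM hydroxyurea for 2, 6, 12 or 24 h. Per the growth protocol, the medium was exchanged for one with B27 supplement lacking antioxidants before hydroxyurea was added, and the labels do not say how long untreated cultures spent in it. No label says that the replicates were separate cultures, so a p-value here reflects nothing but the variation among the deposited samples, and that variation may be technical. The extraction protocol names hippocampal tissue where the other labels name cultured neurons.

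A dividing cell loads the Mcm2-7 helicase onto its origins with the help of Cdc6 and Cdt1, copies its DNA behind the Pcna clamp, and then enters mitosis under Cdk1 and cyclin B. Neurons have left the cell cycle, whereas progenitors, glia and other cells that accompany them in primary culture can still divide. Hydroxyurea inhibits ribonucleotide reductase, lowers the supply of deoxynucleotides and slows replication forks, so it acts on cells in S phase.

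Defining markers of neurons (Tubb3, Map2), astrocytes (Gfap, Aqp4), neural progenitors (Nes, Sox2), oligodendrocyte precursors (Olig2, Pdgfra), microglia (Aif1, Cx3cr1), endothelium (Pecam1) and fibroblasts (Col1a1) were well above background on all 16 arrays, and Rbfox3 and Eomes had no probe. In these bulk samples, fewer dividing cells and less of a transcript per cell cannot be told apart. Per array, 64.6% to 70.4% of the probes exceeded background clearly, and no probe was saturated. Untreated replicate 1 was hybridised on both slides, and its 2 arrays were averaged and counted as 1 sample. Arrays differed in how well the spots of a probe matched. On the first array of untreated replicate 1, 12.6% of probes with more than 1 spot had spots differing by over 1 on the log2 scale. The share was 18.6% on the array of 12 h replicate 3 and between 4.17% and 7.28% on the others. Among 42 member probes with more than 1 spot, 5 differed that much on the first array of untreated replicate 1, 6 on the array of 12 h replicate 3 and 1 on that of 24 h replicate 3.

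No member passed the test in any comparison. With limma and Benjamini-Hochberg adjustment over all 18110 features, the number called at an adjusted p of 0.05 was 0 of 43 members and 0% of all features at each of the treatment times, in their mean (the 4 times averaged), in 24 h against 2 h, and in the F test over the 5 groups. At an unadjusted p under 0.05, 0 members stood out at 2 h (1.29% of all features), 1 at 6 h (0.784%), 0 at 12 h (2.56%), 1 at 24 h (0.911%), 0 in the mean of the 4 times (1.74%) and 1 in 24 h against 2 h (0.834%). In the F test the count was 0 members against 0.966% of features. The members' smallest F-test p-values were 0.102 for Tpx2, 0.142 for Ttk and 0.304 for Kif2c, all with an adjusted p of 1.00.

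For each member and time taken singly, the intervals show how large a difference these samples leave room for. They are not adjusted for the number of members and times, and they reflect only the variation among the deposited samples. The 95% interval of the log2 difference from untreated lay within 1 log2 unit on either side of 0 for 42 of 43 members at 2 h, the exception being Ccnb1 with an upper bound of 1.12, and for all 43 at 6, 12 and 24 h. It lay within 0.5 for 32 members at 2 h, 33 at 6 h, 32 at 12 h and 32 at 24 h. A difference of 1 log2 unit in the whole culture was therefore outside the interval of each of the 43 members at 6, 12 and 24 h, and smaller differences were not resolved for the members with wider intervals.

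The median log2 difference of the 43 members from untreated was -0.03 at 2 h, -0.03 at 6 h, -0.02 at 12 h and -0.07 at 24 h, beside 0.00, -0.01, 0.03 and 0.00 over all features. At 24 h, 33 of 43 members had a lower mean than untreated, where 49.7% of all features did. The counts with a lower mean were 25 at 2 h (50.7% of features), 28 at 6 h (54.8%) and 25 at 12 h (43.4%). These comparisons share the untreated samples. Against 2 h, which shares no sample with the untreated group, the median at 24 h was -0.05 with 32 of 43 lower (50% of features). That comparison uses the same 24 h samples as 24 h against untreated, so their counts are not independent. These counts are descriptions with no test.

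The untreated and 24 h samples overlapped in the members' level. The median deviation of the members from their own means over 15 samples was 0.13, 0.02 and 0.01 in untreated replicates 1 to 3, and -0.04, -0.13 and 0.02 in 24 h replicates 1 to 3. The value of 24 h replicate 3 lay above that of untreated replicate 3. In the other samples it ranged from -0.03 to 0.07, and the SD between replicates, pooled over the groups, was 0.05. Untreated replicate 1 held the highest value of 14 of 43 members (32.6%, against 7.26% of all features), and 24 h replicate 2 held the lowest of 14 (32.6%, against 15.6%). Both arrays of untreated replicate 1 were high: the median member stood 0.19 above the mean of the other 14 samples on the first array and 0.12 above it on the repeat. The median difference at 24 h was -0.02 without untreated replicate 1, -0.11 without untreated replicate 3, -0.05 without 24 h replicate 2 and -0.11 without 24 h replicate 3. Within slide 1 it was -0.06 and within slide 2 -0.13.

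**Figure D1:**
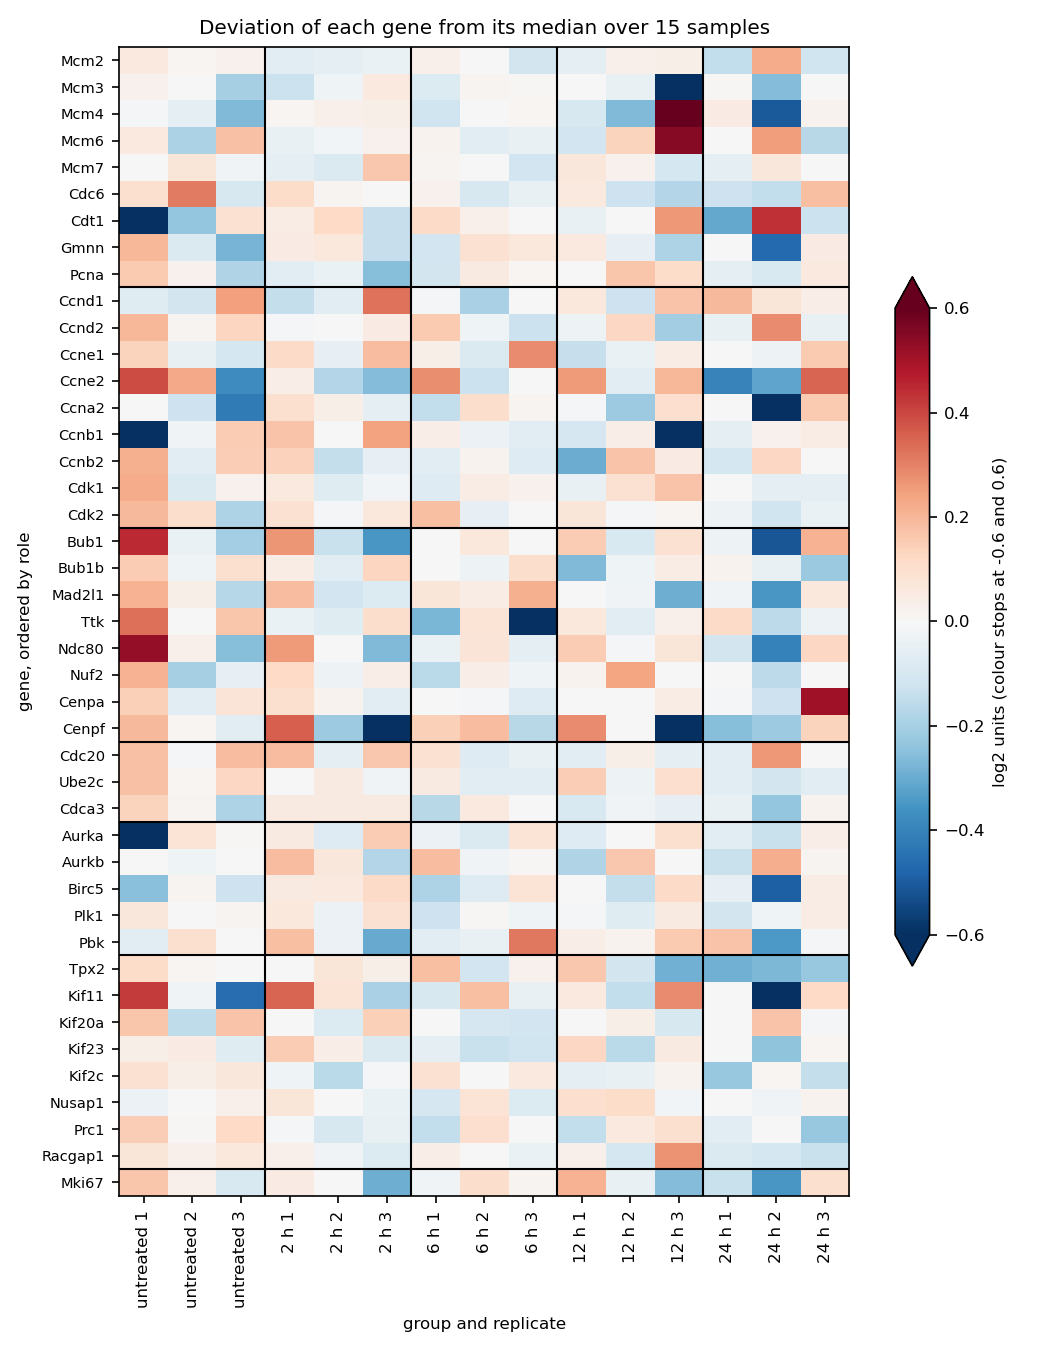
Deviation of each of the 43 genes (rows, ordered by role from replication licensing at the top to Mki67 at the bottom) from its own median over the 15 samples (columns), in log2 units (red higher, blue lower, colour stopping at 0.6), with black lines between groups and roles. The column of untreated replicate 1 is mostly red and that of 24 h replicate 2 mixes blue with red, and among the darkest cells are Aurka, Ccnb1 and Cdt1 in untreated replicate 1 and Mcm3, Mcm4 and Ccnb1 in 12 h replicate 3.

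The highest member differences came from 3 genes and from single spots. Aurka, the mitotic kinase that matures centrosomes, had scaled log2 values (log2 intensity less the array's 75th percentile) of -0.32, 0.73 and 0.65 in untreated replicates 1 to 3. Its values were 0.70, 0.57 and 0.80 at 2 h, 0.61, 0.56 and 0.73 at 6 h, 0.57, 0.65 and 0.74 at 12 h, and 0.58, 0.51 and 0.69 at 24 h. One untreated sample lay below all others, and the remaining 14 lay between 0.51 and 0.80. Aurka gave the highest difference among members measured on all arrays in each comparison with untreated: 0.34 at 2 h, 0.28 at 6 h, 0.30 at 12 h, 0.24 at 24 h, and 0.29 for the 4 times averaged (95% interval -0.07 to 0.64, adjusted p 1.00 in limma).

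Cdt1, well above background on 15 of 16 arrays, had the highest difference of all 43 members at 6 h, 12 h and over the 4 times averaged. It read -4.99, -4.38 and -4.06 untreated, -4.11, -4.03 and -4.29 at 2 h, -4.03, -4.12 and -4.15 at 6 h, -4.19, -4.15 and -3.89 at 12 h, and -4.46, -3.71 and -4.28 at 24 h. Untreated replicate 1 was again the lowest sample, and the differences were 0.34, 0.38, 0.40 and 0.33 at 2, 6, 12 and 24 h.

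On the first array of untreated replicate 1, the 2 spots of the Aurka probe read 112 and 1993 intensity units, a gap of 4.15 on the log2 scale. Ccnb1, the cyclin B1 that activates Cdk1 at mitotic entry, read 12.2 and 787 there, a gap of 6.01. Cdt1, which loads the replicative helicase, read 6.87 and 68.2, a gap of 3.31. Pbk, a mitotic kinase, had 1 low spot of 2, and Nusap1, a microtubule-bundling spindle protein, had 1 low spot of 10 on the same array. With discordant spots left out, a choice made after the values were seen, the untreated replicate 1 values became 0.71 for Aurka, -0.75 for Ccnb1 and -4.16 for Cdt1. The mean difference over the 4 times then moved from 0.29 to -0.06 for Aurka, from 0.33 to -0.10 for Ccnb1 and from 0.36 to 0.08 for Cdt1. Under that choice 36 of 43 members had a lower mean at 24 h (51.2% of all features), with a median of -0.08, and again 0 were called.

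**Figure D2:**
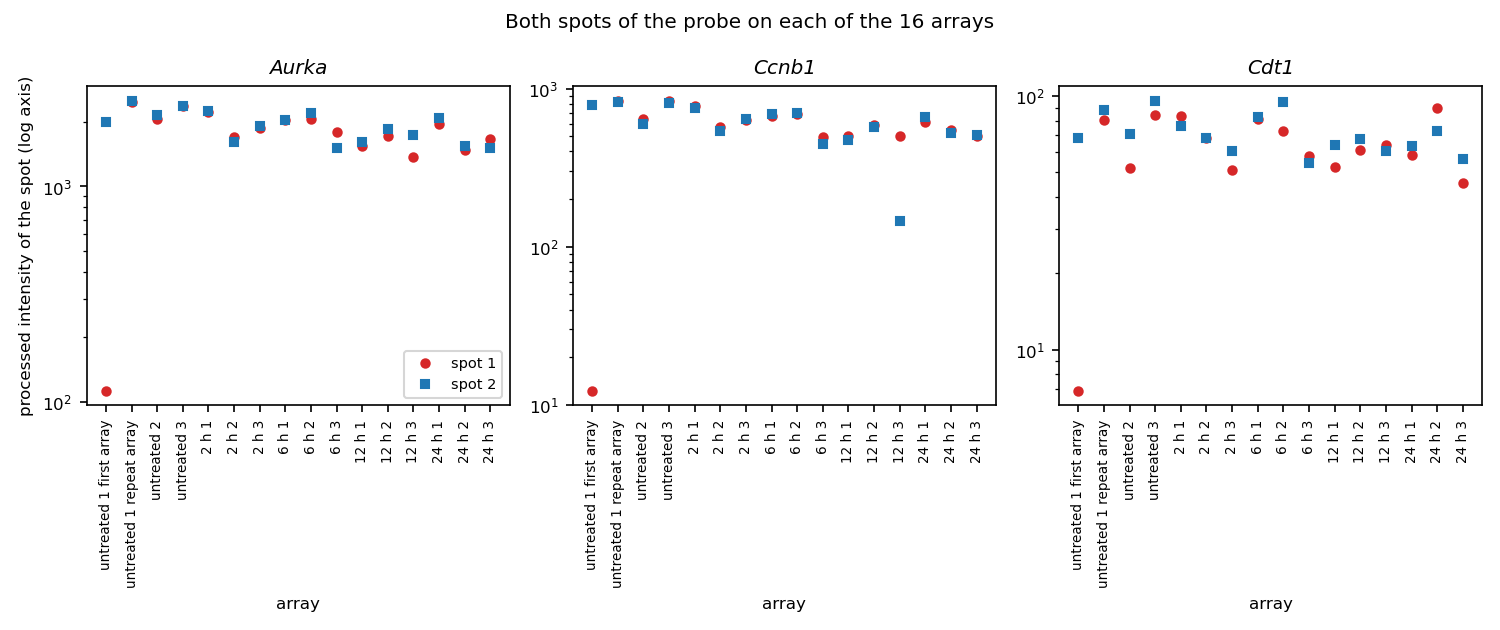
Processed intensity (log axis) of both spots of the Aurka, Ccnb1 and Cdt1 probes on each of the 16 arrays, spot 1 as red circles and spot 2 as blue squares. The pairs lie close together except on the first array of untreated replicate 1, where spot 1 reads 112, 12.2 and 6.87, and for Ccnb1 on the array of 12 h replicate 3.

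**Figure D3:**
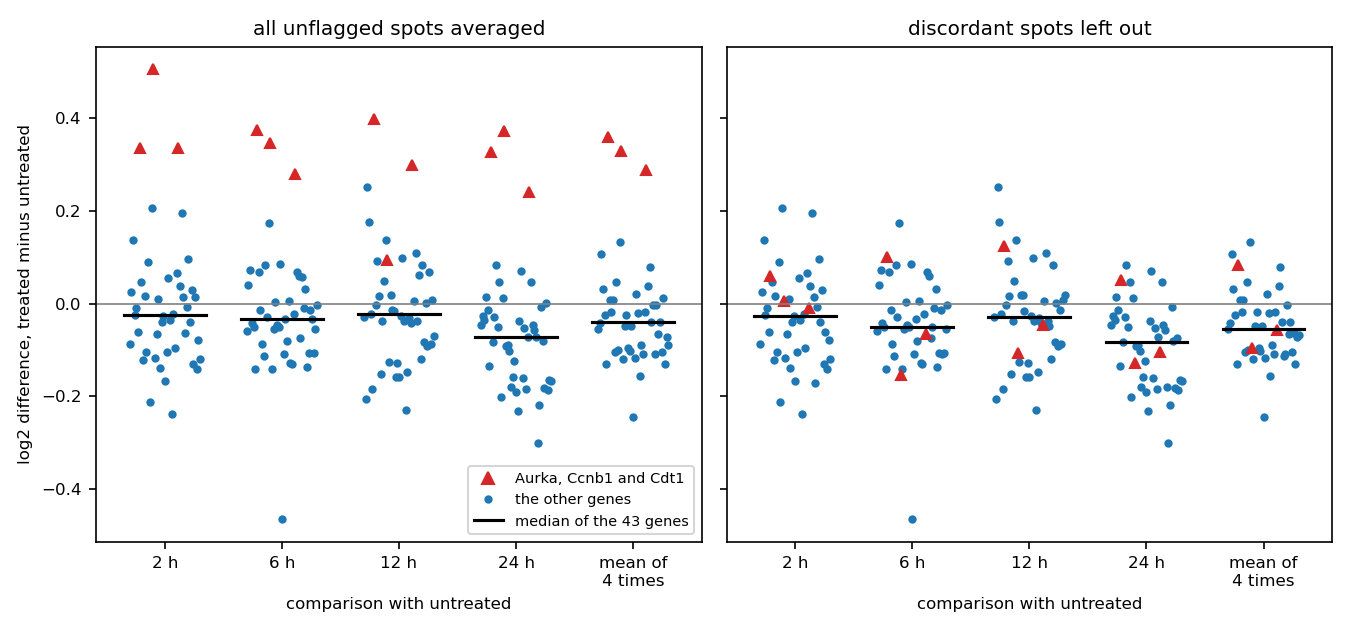
Log2 difference from untreated of each of the 43 genes at 2, 6, 12 and 24 h, and averaged over these times, with all unflagged spots averaged (left) and with discordant spots left out (right). Red triangles are Aurka, Ccnb1 and Cdt1, blue points the other genes and black bars the medians, which lie at -0.07 (left) and -0.08 (right) at 24 h.

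Among the 9 replication genes with a probe, the median difference from untreated was -0.01 at 2 h, -0.01 at 6 h, 0.00 at 12 h and -0.03 at 24 h. Without untreated replicate 1 the 24 h median was 0.02. Pcna, the sliding clamp of the replication fork, had values of 2.54, 2.40 and 2.20 in untreated samples. Its values were 2.31, 2.34 and 2.12 at 2 h, 2.27, 2.43 and 2.39 at 6 h, 2.38, 2.55 and 2.49 at 12 h, and 2.32, 2.29 and 2.44 at 24 h. Every treated group overlapped the untreated one, and the difference at 24 h was -0.03 (95% interval -0.27 to 0.21).

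Mcm2, a subunit of the helicase that unwinds origins, had values of -0.14, -0.18 and -0.17 in untreated samples. It read -0.26, -0.26 and -0.24 at 2 h, -0.17, -0.20 and -0.31 at 6 h, -0.26, -0.17 and -0.16 at 12 h, and -0.34, 0.03 and -0.31 at 24 h. At 2 h all 3 values lay below the untreated ones, by a mean of 0.09, with a 95% interval of the difference from -0.32 to 0.14. A second, dimmer Mcm2 probe gave -0.12 at 2 h and 0.15 at 24 h, where the tested probe gave -0.05.

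Mcm4, another helicase subunit, was the only replication gene with all 3 values above the untreated ones at 2 h, with a difference of 0.14 (95% interval -0.34 to 0.61). Its value in 12 h replicate 3 was 2.33, against 1.04 to 1.59 in the other 14 samples, while Mcm3 read 0.77 in that sample against 1.26 to 1.57 elsewhere. Both are measured by a single spot per array, so no second spot of the tested probe could be set beside these readings. Second probes gave 12 h differences of 0.09 for Mcm4, where the tested probe gave 0.25, and -0.02 for Mcm3, where it gave -0.21. The other helicase subunits, Mcm6 and Mcm7, differed from untreated by 0.01 and -0.01 at 24 h, the loading factor Cdc6 by -0.13 and Gmnn, the inhibitor of Cdt1, by -0.08.

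The 9 cyclins and cyclin-dependent kinases with a probe had median differences of 0.01 at 2 h, -0.03 at 6 h, 0.02 at 12 h and -0.05 at 24 h. Without untreated replicate 1 the 24 h median was -0.01. Cdk1, the kinase that drives entry into mitosis, read 2.62, 2.31 and 2.42 in untreated samples. It read 2.46, 2.33 and 2.38 at 2 h, 2.32, 2.45 and 2.43 at 6 h, 2.35, 2.49 and 2.57 at 12 h, and 2.40, 2.35 and 2.35 at 24 h. All treated values lay inside the untreated range, and the difference at 24 h was -0.09 (95% interval -0.31 to 0.14).

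Ccnd1, the cyclin D1 that starts G1 progression with Cdk4 and Cdk6, read -0.21, -0.25 and 0.10 in untreated samples. Its values were -0.28, -0.21 and 0.19 at 2 h, -0.14, -0.33 and -0.14 at 6 h, -0.08, -0.26 and 0.03 at 12 h, and 0.05, -0.07 and -0.10 at 24 h. Replicate 3 was the highest of its group in the untreated, 2 h, 6 h and 12 h samples, and replicate 1 at 24 h. Ccnd2, the cyclin D2 of neural progenitors, read 1.08, 0.90 and 1.00 untreated, 0.87, 0.88 and 0.93 at 2 h, 1.04, 0.85 and 0.75 at 6 h, 0.85, 1.00 and 0.67 at 12 h, and 0.83, 1.16 and 0.83 at 24 h. Neither cyclin separated from the untreated group at any time: the 24 h differences were 0.08 (95% interval -0.22 to 0.39) for Ccnd1 and -0.05 (-0.32 to 0.22) for Ccnd2.

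Ccnb1 read -2.25, -1.03 and -0.87 in untreated samples, the first being the mean of 2 arrays that includes the low spot given above. Its values were -0.84, -1.02 and -0.78 at 2 h, -0.97, -1.05 and -1.08 at 6 h, -1.12, -0.98 and -1.78 at 12 h, and -1.07, -0.99 and -0.97 at 24 h. The difference at 2 h was 0.51 (95% interval -0.11 to 1.12) with every spot and 0.01 (-0.23 to 0.24) with discordant spots left out. The E-type cyclins Ccne1 and Ccne2 differed by 0.05 and -0.20 at 24 h, and Ccna2 of S phase and G2 by 0.01. At the same time the mitotic cyclin Ccnb2 differed by -0.09 and the S-phase kinase Cdk2 by -0.10. A second Ccna2 probe gave -0.09 at 2 h and -0.15 at 24 h, where the tested probe gave 0.21 and 0.01.

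**Figure D4:**
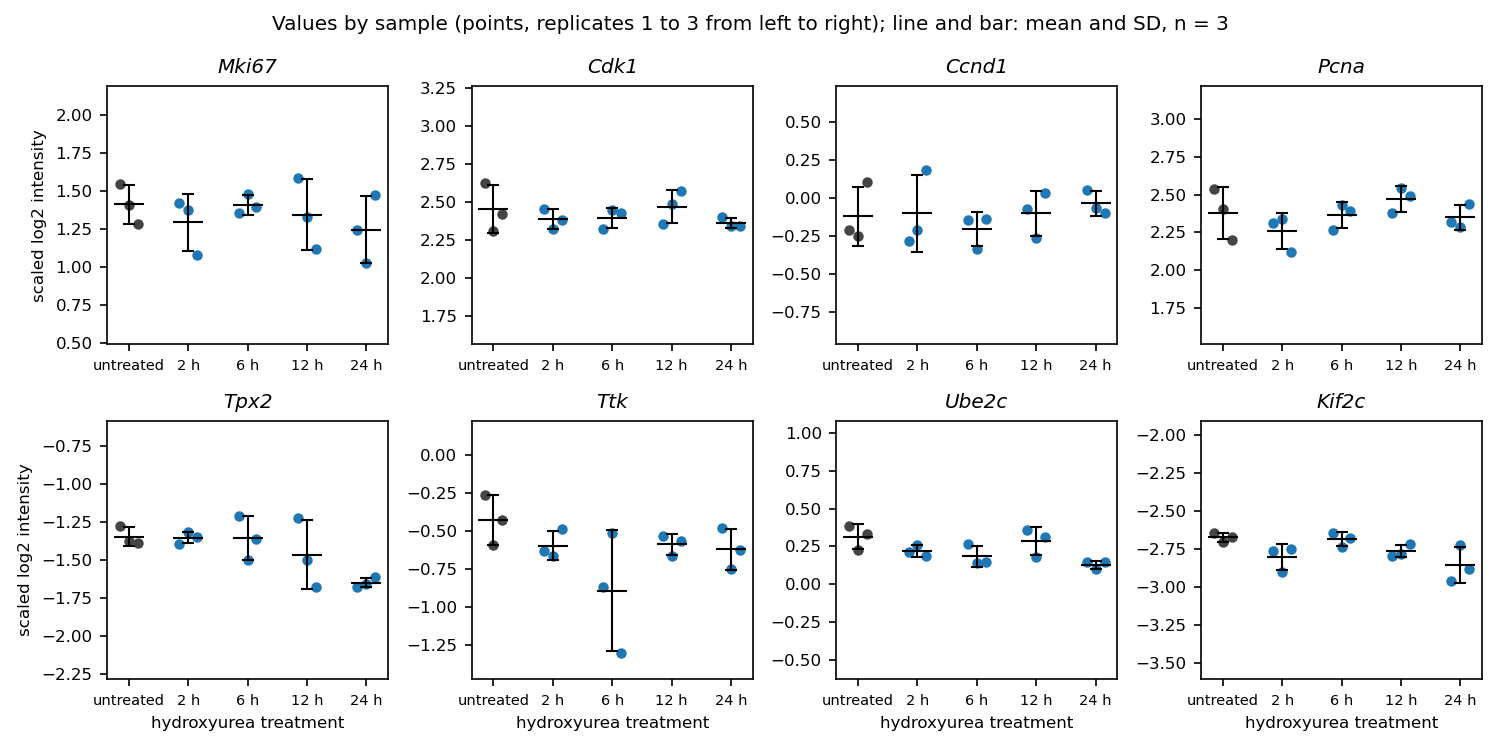
Scaled log2 intensity of Mki67, Cdk1, Ccnd1, Pcna, Tpx2, Ttk, Ube2c and Kif2c in each sample (points, replicates 1 to 3 from left to right) by treatment, with the mean as a line and the SD as a bar (n = 3); every panel spans the same number of log2 units. For Tpx2 the 24 h points, -1.67, -1.66 and -1.61, lie below the untreated ones, and for Ttk the 6 h point at -1.31 lies apart from the rest.

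For the 8 spindle checkpoint and kinetochore genes the median difference was -0.07 at 2 h, -0.05 at 6 h, -0.08 at 12 h and -0.16 at 24 h, and 7 of 8 had a lower mean at 24 h. The 24 h median was -0.02 with 5 of 8 lower without untreated replicate 1, and -0.05 with 5 of 8 lower without 24 h replicate 2. Ttk, the checkpoint kinase also called Mps1, was the member with the lowest difference at 6 h. It read -0.27, -0.60 and -0.43 in untreated samples, -0.63, -0.67 and -0.49 at 2 h, -0.87, -0.51 and -1.31 at 6 h, -0.53, -0.67 and -0.57 at 12 h, and -0.48, -0.75 and -0.63 at 24 h. One 6 h value, that of replicate 3, was far below the others, and the 6 h and untreated groups overlapped. The difference at 6 h was -0.47 (SE 0.17, 95% interval -0.82 to -0.11), with an unadjusted p of 0.0143 and an adjusted p of 1.00 in limma. Without 6 h replicate 3 it was -0.26, and within slides it was -0.26 on slide 1 and -0.96 on slide 2, which holds that replicate. The tested Ttk probe has 1 spot per array.

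Cenpf, a kinetochore protein that peaks in G2 and mitosis, was the lowest member at 2 h and 12 h. It read -2.24, -2.42 and -2.50 untreated, -2.08, -2.65 and -3.15 at 2 h, -2.29, -2.25 and -2.60 at 6 h, -2.15, -2.43 and -3.26 at 12 h, and -2.69, -2.65 and -2.30 at 24 h. Its spread within the 2 h and 12 h groups exceeded its differences from untreated, which were -0.24 (95% interval -0.83 to 0.36) and -0.23 (-0.82 to 0.37). A second Cenpf probe gave -0.04 and -0.03. At 24 h the checkpoint genes Bub1, Bub1b and Mad2l1 differed by -0.18, -0.16 and -0.12, the Ndc80 complex genes Ndc80 and Nuf2 by -0.23 and -0.04, and the centromeric histone Cenpa by 0.07. Without untreated replicate 1 these were 0.01 for Bub1, -0.12 for Bub1b, -0.03 for Mad2l1, -0.02 for Ndc80, 0.07 for Nuf2 and 0.12 for Cenpa.

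Of the 3 mitotic ubiquitination genes, Ube2c, the ubiquitin-conjugating enzyme of the anaphase-promoting complex, had all 24 h values (0.15, 0.10 and 0.14) below the untreated ones (0.39, 0.22 and 0.33). The difference was -0.18 (95% interval -0.38 to 0.02). Its values were 0.21, 0.26 and 0.19 at 2 h, 0.26, 0.14 and 0.15 at 6 h, and 0.36, 0.18 and 0.31 at 12 h, so the 3 earlier times overlapped the untreated group. Cdc20, the mitotic activator of the same complex, differed by -0.05 at 24 h and Cdca3, an adaptor that triggers mitotic entry, by -0.07.

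Of the 5 mitotic kinase and passenger genes, Birc5, the survivin subunit of the chromosomal passenger complex, read 0.83, 1.09 and 0.95 in untreated samples and 1.13, 1.14 and 1.19 at 2 h. The groups did not overlap, and the difference was 0.20 (95% interval -0.10 to 0.50). Its later values were 0.90, 1.00 and 1.16 at 6 h, 1.08, 0.94 and 1.19 at 12 h, and 1.03, 0.59 and 1.12 at 24 h, each overlapping the untreated group. Aurkb, the kinase of the passenger complex, differed by 0.05 at 24 h, Plk1, the kinase of mitotic entry and exit, by -0.06 and Pbk by -0.07. With discordant spots left out Pbk was at -0.18, and without 24 h replicate 2 it was at 0.07.

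For the 8 spindle, kinesin and cytokinesis genes the median difference was -0.02 at 2 h, -0.04 at 6 h, -0.04 at 12 h and -0.17 at 24 h, with 7 of 8 lower at 24 h. The 24 h median was -0.11 with 6 of 8 lower without untreated replicate 1, and -0.12 with 5 of 8 lower without 24 h replicate 2. Tpx2, which activates Aurka on spindle microtubules, was the lowest member at 24 h. It read -1.27, -1.38 and -1.39 in untreated samples, -1.39, -1.32 and -1.35 at 2 h, -1.21, -1.50 and -1.36 at 6 h, -1.22, -1.50 and -1.67 at 12 h, and -1.67, -1.66 and -1.61 at 24 h. The 24 h values lay below all untreated and 2 h values, and the 12 h values spread over both. The difference at 24 h was -0.30 (95% interval -0.56 to -0.05, a ratio of 0.811), with an unadjusted p of 0.024 and an adjusted p of 1.00 in limma. Against 2 h it was -0.30 (-0.55 to -0.04), with an unadjusted p of 0.0264 and an adjusted p of 1.00. It was -0.27 without untreated replicate 1 and, within slides, -0.37 on slide 1 and -0.25 on slide 2. The tested Tpx2 probe has 1 spot per array.

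Kif2c, a kinesin that removes tubulin at kinetochores, read -2.64, -2.70 and -2.67 in untreated samples. It read -2.76, -2.90 and -2.75 at 2 h, -2.64, -2.74 and -2.68 at 6 h, -2.79, -2.78 and -2.72 at 12 h, and -2.96, -2.72 and -2.88 at 24 h. Its values at 2, 12 and 24 h were all below the untreated ones, by the narrow margin that 3 close untreated values allow, and the difference at 24 h was -0.18 (95% interval -0.39 to 0.02). A second Kif2c probe gave differences of -0.11, -0.10, -0.13 and -0.11 at 2, 6, 12 and 24 h. With normexp background correction the 24 h difference of Kif2c was 0.03.

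Prc1, which bundles the midzone microtubules, read -0.13, -0.27 and -0.16 untreated, -0.29, -0.38 and -0.33 at 2 h, and -0.34, -0.28 and -0.51 at 24 h. The 2 h and 24 h groups both lay below the untreated one, with differences of -0.14 and -0.19 (95% interval at 24 h -0.42 to 0.05). A second, dimmer Prc1 probe gave 0.09 at 2 h and -0.16 at 24 h. Racgap1, the centralspindlin subunit that positions the cleavage furrow, read -1.16, -1.20 and -1.17 untreated and -1.32, -1.34 and -1.37 at 24 h, a difference of -0.16 (95% interval -0.38 to 0.05). The spindle motor Kif11 read -0.10, -0.54 and -0.97 untreated and -0.52, -1.35 and -0.40 at 24 h. Its groups overlapped, and the difference of -0.22 became 0.08 without 24 h replicate 2 and 0.00 without untreated replicate 1. At 24 h the cytokinesis kinesins Kif20a and Kif23 differed by -0.01 and -0.08, and Nusap1 by 0.00 (-0.07 with discordant spots left out).

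Mki67, the nuclear protein Ki-67 that marks cycling cells, read 1.55, 1.41 and 1.29 in untreated samples. It read 1.43, 1.38 and 1.08 at 2 h, 1.36, 1.49 and 1.40 at 6 h, 1.59, 1.33 and 1.12 at 12 h, and 1.25, 1.03 and 1.47 at 24 h. All treated groups overlapped the untreated one. The difference was -0.12 at 2 h, 0.00 at 6 h, -0.07 at 12 h and -0.17 at 24 h (95% interval at 24 h -0.49 to 0.15). With discordant spots of 12 h replicate 3 left out, the 12 h difference was 0.02. The other 2 Mki67 probes gave -0.17 and 0.04 at 2 h, and -0.12 and -0.07 at 6 h. At 12 h they gave 0.10 and 0.07, and at 24 h -0.16 and -0.10.

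Counted without a test, 5 members did not overlap the untreated group at 2 h, Mcm4 and Birc5 higher and Mcm2, Kif2c and Prc1 lower, where 6.20% of all features did not overlap (3.13% higher and 3.08% lower). The count was 0 at 6 h (4.22% of features), 1 at 12 h (Kif2c, lower, where 5.23% of features did not overlap and 2% were lower) and 0 in the mean of the 4 times (0.0607%). At 24 h it was 5, all lower: Ube2c, Tpx2, Kif2c, Prc1 and Racgap1, where 3.20% of features did not overlap and 1.88% were lower. Against 2 h, 6 members were lower at 24 h without overlap, Cdk2, Ube2c, Cdca3, Birc5, Tpx2 and Racgap1, where 2.89% of features did not overlap and 1.15% were lower. Among the 6 members whose tested probe has a single spot (Mcm3, Mcm4, Ttk, Ube2c, Tpx2 and Kif2c) are Ttk and Tpx2, which had the only unadjusted p-values under 0.05, and 3 of the 5 lower at 24 h.

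**Figure D5:**
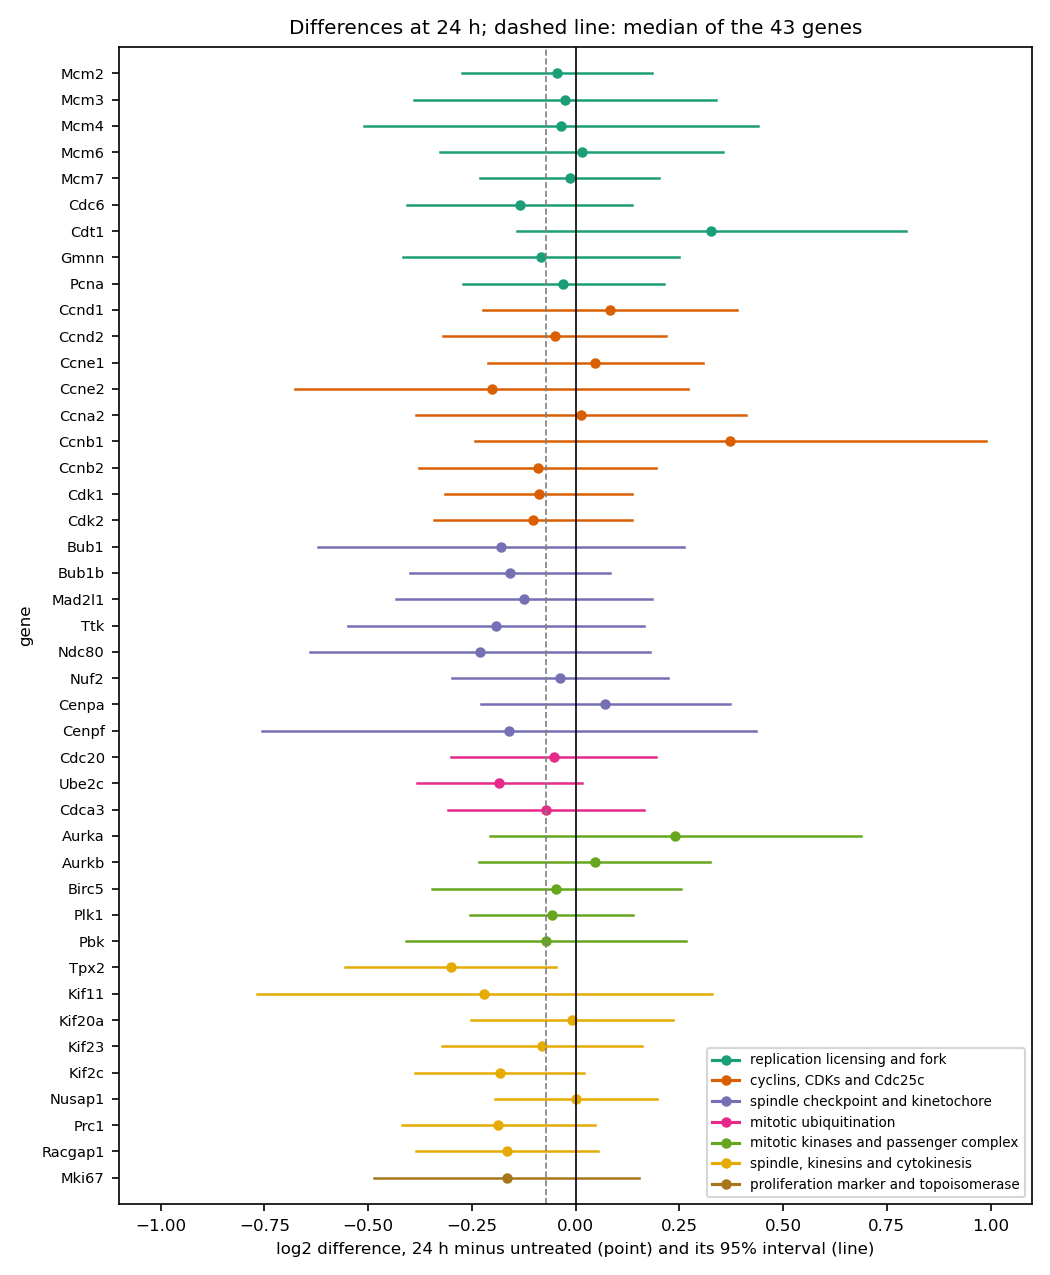
Log2 difference between 24 h and untreated of each of the 43 genes (points) with its 95% interval (lines), coloured by role, with 0 as a solid line and the median of the genes, -0.07, as a dashed line. Only the interval of Tpx2, -0.56 to -0.05, lies on one side of 0.

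Some members varied together between replicates of a group. After the group means were removed, the correlation across the 15 samples of Bub1 with Ndc80 was 0.96, of Ccna2 with Kif11 0.94, of Bub1 with Kif11 0.93 and of Ndc80 with Kif11 0.91. Gmnn correlated with these 4 genes at 0.83 to 0.85. The 5 genes were picked after their values were seen, and each pair shares the same 15 libraries. Over their 10 pairs the median correlation was 0.84, and it was 0.77 over 13 samples without untreated replicate 1 and 24 h replicate 2. Bub1 deviated from its mean over the 15 samples by 0.46 in untreated replicate 1 and by -0.51 in 24 h replicate 2, and Kif11 by 0.44 and -0.81. Second probes of Bub1 and Ccna2 correlated with the tested ones at 0.48 and 0.52. The whole set was not tied together in this way: the median over all 903 member pairs was 0.06, beside 0.00 over all named genes, and 9.30% of pairs exceeded 0.6, beside 8.29%.

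Some member promoters hold the elements that cell cycle genes are known to share. Many mitotic genes are held down outside G2 and mitosis through a CHR element read by the MuvB complex, often beside CCAAT boxes bound by NF-Y, whereas E2F sites are typical of replication genes. In the 250 bases before the start, from RefSeq (GRCr8) and on both strands, TTTGAA was present in 12 of 38 member promoters of 37 genes (31.58%, against 16.20% of 33469 rat promoters). CCAAT was present in 25 (65.79%, against 34.02%), and TTTGGCGC or TTTCCCGC in 3 (7.89%, against 1.21%), in Mcm5, Mcm6 and Mcm7. These promoters include those of listed genes with no probe, such as Mcm5. The roles were uneven. TTTGAA was in 1 of 8 replication, 1 of 8 spindle checkpoint and kinetochore and 3 of 8 spindle and cytokinesis promoters. It was in 3 of 6 promoters of cyclins and kinases, 1 of 4 of mitotic kinases, 1 of 2 of ubiquitination genes and 2 of 2 of proliferation markers. CCAAT was in 6 of 8 replication but 3 of 8 spindle checkpoint and kinetochore promoters. None of the motifs contains another, and a match is a description of the sequence only. The promoters of 4 of the 5 genes that varied together, with that of Cdk1 as a gene that holds both elements and Prc1 as one of those lower at 24 h, follow for the 150 bases before the start, 5′ to 3′ on the gene's strand, with TTTGAA and CCAAT (or their reverse complements) in capitals.
Cdk1, chr20:19265143-19265292, plus strand: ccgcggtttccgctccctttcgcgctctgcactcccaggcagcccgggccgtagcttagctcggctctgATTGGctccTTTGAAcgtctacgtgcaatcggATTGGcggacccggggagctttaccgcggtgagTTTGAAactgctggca
Prc1, chr1:143659331-143659480, plus strand: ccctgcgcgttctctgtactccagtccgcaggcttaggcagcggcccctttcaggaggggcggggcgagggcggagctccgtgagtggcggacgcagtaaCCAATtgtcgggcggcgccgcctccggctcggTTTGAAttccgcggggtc
Kif11, chr1:244536717-244536866, plus strand: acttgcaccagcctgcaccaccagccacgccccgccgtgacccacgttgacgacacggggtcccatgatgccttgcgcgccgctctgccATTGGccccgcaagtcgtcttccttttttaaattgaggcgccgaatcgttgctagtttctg
Gmnn, chr17:40729684-40729833, plus strand: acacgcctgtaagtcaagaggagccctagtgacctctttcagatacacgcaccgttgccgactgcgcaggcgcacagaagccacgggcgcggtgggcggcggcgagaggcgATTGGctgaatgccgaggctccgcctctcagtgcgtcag
Bub1, chr3:135504922-135505071, minus strand: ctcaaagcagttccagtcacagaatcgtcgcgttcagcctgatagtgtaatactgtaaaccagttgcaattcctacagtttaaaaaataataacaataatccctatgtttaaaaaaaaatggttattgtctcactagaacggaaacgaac
Ndc80, chr9:118887530-118887679, minus strand: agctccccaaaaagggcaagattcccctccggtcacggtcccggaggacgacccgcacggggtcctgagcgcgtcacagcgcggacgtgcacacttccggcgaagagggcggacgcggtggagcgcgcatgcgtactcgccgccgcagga
In these windows Cdk1 holds TTTGAA at 72 and 16 bases before the start and CCAAT on the opposite strand at 81 and 49, and Prc1 holds TTTGAA at 18 and CCAAT at 50. Kif11 and Gmnn hold 1 CCAAT each on the opposite strand, at 61 and 39, and Bub1 and Ndc80 hold none of these letters here. Kif2c, also lower at 24 h and not printed, holds neither TTTGAA nor CCAAT in the 250 bases of any promoter entry. Ube2c, Tpx2 and Racgap1, the others lower at 24 h without overlap, had no promoter entry.

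Of 112 further cell cycle genes in 7 lists, 94 were tested and 0 were called in any comparison. Their median difference was -0.01 at 2 h, -0.02 at 6 h, 0.00 at 12 h and -0.03 at 24 h. At an unadjusted p under 0.05, 0 were higher and 0 lower at 2 h (1.29% of all features either way), 0 and 1 at 6 h (0.784%), 4 and 2 at 12 h (2.56%), and 0 and 0 at 24 h (0.911%). In the mean of the 4 times 3 were higher and 1 was lower (1.74%). The genes with the smallest p of their list in that mean were Orc3 of the origin recognition complex, at 0.38 (unadjusted p 0.0207), and Cdc27 of the anaphase-promoting complex, at -0.51 (unadjusted p 0.0234). Ccnh, the cyclin of the CDK-activating kinase, differed by 0.30 (unadjusted p 0.0441), with an adjusted p of 1.00 in limma for all 3. In the remaining lists they were the kinesin Kif15 at 0.38, the CDK inhibitor Cdkn2c at -0.18, the MuvB subunit Lin37 at -0.17 and securin, Pttg1, at -0.14, each with an unadjusted p above 0.1. Cdc27 was well above background on 14 of 16 arrays.

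Markers of cells other than neurons were measured beside the members. Over 9 lists of neuronal and other markers, 0 genes were called in limma. The astrocyte gene Aldoc, a glycolytic aldolase, had the smallest p, with a mean difference of 0.44 (unadjusted p 0.0058, adjusted p 1.00 in limma), and 7 of 8 astrocyte genes had a higher mean over the 4 times. Of 10 progenitor genes 7 had a higher mean, with Hes5, a Notch target, at 0.33. The 6 fibroblast and pericyte genes were all lower, with a median of -0.15, as were the 6 interneuron genes, with a median of -0.05. Of 5 microglia genes 4 had a higher mean. Lower means were seen in 5 of 9 neuron, 3 of 5 excitatory neuron, 3 of 7 oligodendrocyte and 1 of 3 endothelium genes. Over all features, 51.0% had a lower mean. In the log2 of the summed levels of a list, the brightest genes weigh most. For the progenitor genes it ranged from 6.89 to 7.42 in untreated samples and from 7.07 to 7.56 at 24 h. For the astrocyte genes it ranged from 7.33 to 7.60 and from 7.61 to 7.76, which did not overlap. Their lowest values at 2, 6 and 12 h, 7.67, 7.63 and 7.68, also lay above the untreated range. The median deviations of the astrocyte genes were 0.0678, -0.0484 and -0.1608 in untreated replicates 1 to 3. They overlapped these at 2 h (-0.01, 0.03 and 0.10), 6 h (-0.02, 0.03 and -0.03) and 24 h (-0.03, 0.10 and 0.08). At 12 h they did not overlap, though the lowest was 0.0684. Of all single features, 6.20%, 4.22%, 5.23% and 3.20% did not overlap at 2, 6, 12 and 24 h. The fibroblast and pericyte genes had median deviations of 0.20, -0.39 and 0.74 in untreated replicates 1 to 3 and of 0.77, -0.52 and -0.21 in 24 h replicates 1 to 3. They deviated by 0.02, -0.52 and 0.61 at 2 h, by -0.13, -0.45 and 0.59 at 6 h, and by -0.09, -0.42 and 0.47 at 12 h. Replicate 2 was thus the lowest in all 5 groups, and replicate 3 the highest in each but the 24 h group. Their part in the members' values was not tested.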

How the data were processed

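The authors deposited 1-colour Agilent scanner files with a processed intensity per spot (Feature Extraction 11.5.1.1 and a design on rn4, per the file headers) and a table of a normalized score per spot. Each score column correlated at 0.999996 with the log2 processed intensity of a scanner file. No label or header used here says how that score was computed. Spots of a probe were averaged after removal of control spots and outlier flags. Values are log2 of the deposited processed intensity less each array's 75th percentile, and a ratio of these deposited intensities is given for Tpx2 only. Each gene was read from its brightest probe, and 18110 features remained after a filter that asked for a signal clearly over background on all arrays of 1 or more groups. One linear model over 15 samples was fitted with limma 3.58.1 in R 4.3.3 (lmFit, eBayes), with Benjamini-Hochberg adjustment over all features and a threshold of 0.05; limma's intervals are 95%. The number of arrays limits the precision. The members and lists were chosen with earlier results of these data known. Described in full were Mki67, Cdk1, Ccnb1, Ccnd1, Ccnd2, Pcna and Mcm2, the highest and lowest member of each comparison with untreated among the 41 well above background on all arrays, and the 3 smallest F-test p-values; Cdt1 and members whose groups did not overlap were added after their values were seen. Further pathway and marker genes were named for the smallest p of their list or as defining markers. The 31 alternatives covered scaling, either array of untreated replicate 1 alone, background correction, the dim-probe filter, the choice of probe, the slide, the replicate number, the deposited scores and each replicate left out. Leaving out discordant spots, those of a probe that differed by over 1 log2 unit on an array and lay farther from that probe's median, was added after the data were seen. The fit was tested on simulated data.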

Additional observations from a re-analysis of the deposited data

Results flagged for a closer look

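For 4 of the 43 members (9.30%, against 4.93% of all features), all 3 samples at one time lay on the other side of the untreated mean from all 3 samples at another time. The difference between the times was not tested for any of them, and both times share the untreated samples. In all 4, the samples at both times overlapped the range of the untreated samples. The margin could be very small: the lowest Pcna value at 12 h was 2.3788 and the untreated mean 2.3787. For Pcna the 2 h samples lay lower and the 12 h samples higher, with differences of -0.12 and 0.09 from untreated and -0.214 between them. For Ccnd1 the 6 h samples lay lower and the 24 h samples higher, at -0.09 and 0.08, which is -0.17 apart. Mad2l1 was at 0.09 at 6 h and -0.13 at 12 h, 0.215 apart, and Cdca3 at 0.07 at 2 h and -0.04 at 12 h, 0.108 apart.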

How the results depend on the processing

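Under 31 alternatives no member was called in any of the 6 comparisons (7986 values), and the smallest adjusted p was 0.552. The number of all features called stayed at 0 except in 3 cases: 1 in the mean of the 4 times with the slide as a block, untreated replicate 1 being placed on the slide of its first array, 1 in that mean with the replicate block after the 24 h numbers 1 and 3 were exchanged, and 5 at 12 h within slide 1. None of these was a member, and the cause was not tested. The median member difference moved to -0.0915 at 6 h within slide 1, to -0.0779 at 2 h and -0.13 at 24 h within slide 2, and to -0.0158 at 24 h in the deposited scores, which are on another scale. With 1 sample left out at a time it ranged from -0.05 to 0.01 at 2 h, -0.06 to 0.00 at 6 h, -0.05 to 0.01 at 12 h, -0.11 to -0.02 at 24 h, -0.08 to -0.01 in the mean of the 4 times and -0.09 to -0.03 in 24 h against 2 h, and the features called ranged from 0 to 0. The replicate number as a block gave 0 calls and a 24 h median of -0.07. Same-numbered samples deviated together (correlation over 0.1) in 19 of 30 pairs (median 0.13), against 11 of 60 pairs with other numbers (median -0.08). This is a hint of pairing from the data, but not every pair passed 0.1 and no label states it, so the block was kept as an alternative. The deposited score columns of 24 h replicates 1 and 3 each match the other's scanner file, and exchanging them raised the count to 24 of 30, all with a correlation above 0. A slide block by estimated correlation could not be fitted with untreated replicate 1 on both slides. Ttk and Tpx2 are measured by 1 spot per array.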
